A study of Mus musculus with 48 samples.

Results

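The genes of omega-oxidation described here are 8 members of the Cyp4 family of cytochromes P450 and Aldh3a2. They were chosen by symbol as Cyp4a10, Cyp4a14, Cyp4a31, Cyp4a32, Cyp4f13, Cyp4f14, Cyp4f15, Cyp4v3 and Aldh3a2, and the rule uses no measured value, though results of these data were known when it was written. All 9 are among the 11275 genes of the frozen (FROZ) table, 8 are among the 6673 genes of the formalin-fixed paraffin-embedded (FFPE) table, and Cyp4a31 was not analysed in FFPE. The values come from TempO-Seq, in which detector oligos that lie side by side on a transcript are ligated and counted. Liver was taken from 24 male B6C3F1 mice, reported as 4 weeks old, that drank dichloroacetic acid (DCA) in water for 6 days. Groups of 6 mice received 0, 1, 2 or 3.5 g/L, which corresponds to 0, 198, 313 or 427 mg/kg-d, and every mouse gave 1 FROZ and 1 FFPE library. RNA was purified from FROZ liver, whereas FFPE tissue was lysed and the lysate was annealed to the oligos directly. Samples had been stored for decades, and FFPE tissue was used for this assay some years after the FROZ RNA was isolated. FROZ samples were a mix of lobes and FFPE samples came from the left lateral and right medial lobes. Preservation, extraction, storage and lobe therefore cannot be told apart. Libraries held 6690000 to 9840000 reads on listed genes in FROZ and 1830000 to 6010000 in FFPE, as recovered from the smallest step of the values, with which 95.7 to 96.6% of low values in FROZ and 81.0 to 94.0% in FFPE came out as whole reads. That step, the level of 1 read, was 0.102 to 0.150 CPM (counts scaled to a total of 1000000) in FROZ and 0.166 to 0.546 CPM in FFPE.

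Omega-oxidation is the route by which the endoplasmic reticulum attacks a fatty acid at its methyl end. A P450 of the Cyp4 family adds a hydroxyl group there, an alcohol dehydrogenase turns it into an aldehyde, and a fatty aldehyde dehydrogenase such as Aldh3a2 turns the aldehyde into an acid. The resulting dicarboxylic acids are shortened in peroxisomes. In rodent liver the Cyp4a genes are classical targets of PPAR alpha, the nuclear receptor that senses fatty acids and peroxisome proliferators. Cyp4f enzymes are better known for the inactivation of leukotrienes and other eicosanoids, and Cyp4v3 is the mouse counterpart of human CYP4V2, a fatty acid hydroxylase that is mutated in Bietti crystalline dystrophy.

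The 4 Cyp4a members lie next to each other on chromosome 4 of GRCm38, between 115486200 and 115621602, a span of 135 kb, in the order Cyp4a14, Cyp4a10, Cyp4a31 and Cyp4a32. The 3 Cyp4f members lie on chromosome 17 between 32685627 and 32947402, Cyp4v3 lies on chromosome 8 at 45304944 to 45333216, and Aldh3a2 lies on chromosome 11 at 61223417 to 61267464. Copies of the Cyp4a genes are close in sequence, which matters for how their reads can be assigned. The first 60 coding bases are shown here in the direction of the gene, from exon sequence of GENCODE M21 on GRCm38, because they show how little separates Cyp4a10 from Cyp4a31 and Cyp4a32 and how far Cyp4a14 stands from them. Capitals mark bases that differ from Cyp4a10 at the same position.
Cyp4a10 (chr4:115518322-115518381, plus strand): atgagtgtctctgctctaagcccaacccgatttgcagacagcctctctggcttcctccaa
Cyp4a32 (chr4:115600975-115601034, plus strand): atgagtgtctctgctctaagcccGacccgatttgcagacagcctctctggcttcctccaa
Cyp4a31 (chr4:115563717-115563776, plus strand): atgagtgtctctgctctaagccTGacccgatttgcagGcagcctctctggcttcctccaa
Cyp4a14 (chr4:115496054-115496113, minus strand): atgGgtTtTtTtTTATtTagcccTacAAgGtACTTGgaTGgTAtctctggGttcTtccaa
In this stretch Cyp4a32 differed from Cyp4a10 at 1 base, Cyp4a31 at 3 bases and Cyp4a14 at 24 bases. Over the whole coding sequence, Cyp4a10 was 97.2% identical to Cyp4a32 and 96.6% to Cyp4a31, but only 75.6% to Cyp4a14.

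Of the 50-base windows of its transcripts, the length of a probe target in this kind of assay, Cyp4a32 shared 46.8% with another gene, Cyp4a10 29.8% and Cyp4a31 20.6%. Cyp4a14 shared 0.245%, Aldh3a2 none, and the 3 Cyp4f members 2.39 to 2.56%. Cyp4v3 shared 7.02% of its windows, all with the gene model Gm45753. The split of reads between near copies is visible in the values. In FROZ, of the values between 0 and 1000 reads, all 13 of Cyp4a14, 13 of Aldh3a2, 24 of Cyp4f13, 24 of Cyp4f14 and 23 of Cyp4f15 were whole reads within 0.05 of a read. Of the same range, 0 of 12 values of Cyp4a10, 3 of 20 of Cyp4a32 and 6 of 22 of Cyp4a31 were whole. The counting by expectation maximization can divide a read among copies, so the single values of these 3 genes are uncertain. Cyp4a14 and Aldh3a2 showed no such division in FROZ values under 1000 reads. Above 1000 reads some of their values were not whole. Cyp4a14 had 5943.4 and 3376.36 reads in animals 73 and 101, and Aldh3a2 had 3976.9 reads in animal 73. In animals 73 and 101 Cyp4v3 had 4518 and 4478 reads. The cause was not tested.

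**Figure D1:**
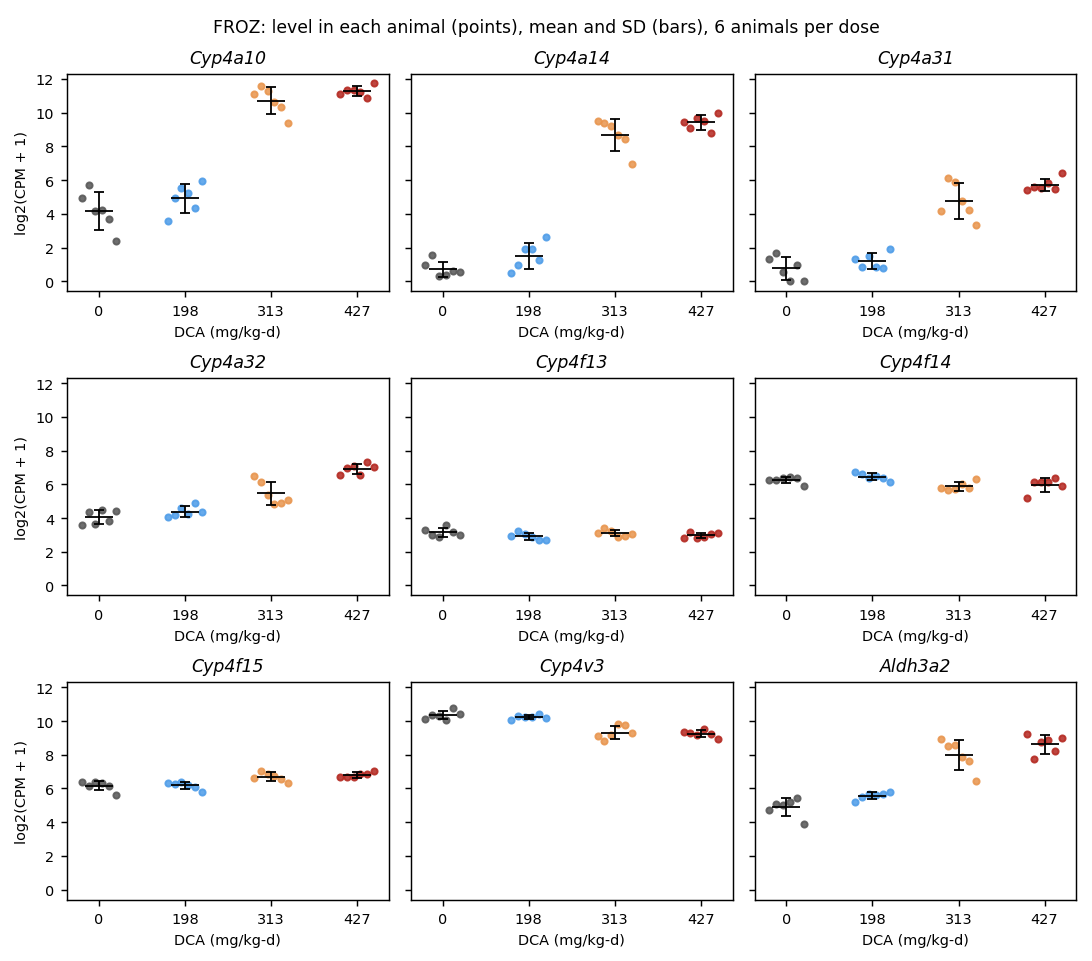
Level of each of the 9 genes in FROZ liver, as log2(CPM + 1), against the dose of DCA in mg/kg-d. Each point is 1 animal, and bars give the mean and SD of 6 animals. The 4 Cyp4a genes and Aldh3a2 lie above all controls at 313 and 427 mg/kg-d, Cyp4v3 lies below them, and Cyp4f13 stays near a mean of 3 at every dose.

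In FROZ liver, the Cyp4a genes and Aldh3a2 rose at 313 and 427 mg/kg-d, Cyp4v3 fell, and none of the 9 genes passed the test at 198 mg/kg-d. A gene was called where its change exceeded 2-fold and its adjusted p (limma over every gene of the table, Benjamini-Hochberg) was under 0.05. At 198 mg/kg-d limma called 0 of 9 genes, against 0.106% of all genes. Before adjustment 2 of them, Cyp4a14 and Aldh3a2, had p under 0.05 in limma. An exact rank sum test called 0 of all 11275 genes at this dose, so its 0 among the members cannot decide. At 313 mg/kg-d 6 of 9 were called, against 2.31% of all genes, with 5 higher (1.43% of all genes) and 1 lower (0.887%). At 427 mg/kg-d the same numbers of genes were called, against 3.5% of all genes, 2.26% higher and 1.24% lower. The median log2 fold change of the 9 genes was 0.33, 1.40 and 2.86 at the 3 doses in rising order, and that of all 11275 genes was 0.07, 0.11 and 0.10. Levels are given on the log2(CPM + 1) scale or in CPM, and they were not compared between genes, since each gene has its own probes. Fewer cells of a type and less RNA per cell cannot be told apart in bulk liver.

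Cyp4a14, a fatty acid omega-hydroxylase, was nearly silent in the vehicle controls. Its FROZ level had a lowest, median and highest value of 0.22, 0.48 and 1.89 CPM in controls, which were 2 to 15 reads, and of 0.38, 2.09 and 5.05 CPM at 198 mg/kg-d. It reached 123, 504 and 727 CPM at 313 mg/kg-d and 450, 714 and 1025 CPM at 427 mg/kg-d. Controls and animals at 313 or 427 mg/kg-d did not overlap, whereas only 3 of 6 animals at 198 mg/kg-d lay above every control. The log2 fold change was 7.98 ± 0.35 (SE, n = 6 per group) at 313 mg/kg-d and 8.70 ± 0.35 at 427 mg/kg-d, or 253-fold and 417-fold, with limma adjusted p of 4.35e-15 and 4.76e-16. Both understate the change, since the offset of 1 CPM exceeds most control values. With an offset of 0.1 CPM the log2 fold changes were 9.27 and 9.998.

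Cyp4a10, the other strongly inducible omega-hydroxylase of mouse liver, rose in the same groups. The lowest, median and highest level was 4.16, 17.4 and 50.4 CPM in controls, 10.7, 32.7 and 59.9 CPM at 198, 678, 1866 and 3051 CPM at 313, and 1836, 2511 and 3402 CPM at 427 mg/kg-d. No animal at 313 or 427 mg/kg-d overlapped with a control. The log2 fold change was 6.54 ± 0.41 at 313 and 7.09 ± 0.41 at 427 mg/kg-d (limma adjusted p = 2.6e-11 and 1.44e-12), against 0.74 ± 0.41 at 198 mg/kg-d (adjusted p = 0.369).

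Cyp4a31, a near copy of Cyp4a10, was listed at 0 in 2 of 6 controls and at up to 2.25 CPM in the others. It rose to 9.31, 21.7 and 69.8 CPM (lowest, median, highest) at 313 and to 42.4, 46.6 and 85.4 CPM at 427 mg/kg-d. The log2 fold changes were 3.99 ± 0.36 and 4.95 ± 0.36 (limma adjusted p = 1.49e-08 and 6.91e-11).

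Cyp4a32 changed least among the Cyp4a members. Its levels were 11.1, 16.5 and 21.5 CPM in controls, 15.9, 18.5 and 29.0 CPM at 198, 27.7, 36.0 and 87.4 CPM at 313, and 90.8, 126 and 158 CPM at 427 mg/kg-d. The 313 mg/kg-d group lay above all controls, with a log2 fold change of 1.40 ± 0.23 (limma adjusted p = 7.31e-05), and the 427 mg/kg-d group lay above all animals at 313 mg/kg-d, at 2.86 ± 0.23 against controls (adjusted p = 6.02e-10).

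The summed level of the near copies Cyp4a10, Cyp4a31 and Cyp4a32 does not depend on how reads were divided among them. Its median was 34.0 CPM in controls, 52.0 at 198, 1945 at 313 and 2677 at 427 mg/kg-d, and its mean on the log2 scale lay 5.56 and 6.15 above the controls at the upper doses. The sum was formed after the values were seen and was given no test.

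Aldh3a2, the microsomal fatty aldehyde dehydrogenase that is deficient in Sjögren-Larsson syndrome, rose with the Cyp4a genes on another chromosome. Its FROZ level was 13.8, 32.3 and 42.7 CPM (lowest, median, highest) in controls, 36.0, 48.9 and 53.9 CPM at 198, 85.3, 297 and 487 CPM at 313, and 213, 451 and 596 CPM at 427 mg/kg-d. In 5 of 6 animals at 198 mg/kg-d it lay above every control, yet the log2 fold change of 0.68 ± 0.31 did not pass (limma adjusted p = 0.251). It was 3.10 ± 0.31 at 313 and 3.74 ± 0.31 at 427 mg/kg-d, or 8.55-fold and 13.3-fold, with adjusted p of 4.69e-08 and 5.73e-10.

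Cyp4v3 moved the other way. It had 1077, 1293 and 1730 CPM (lowest, median, highest) in FROZ controls and 1085, 1216 and 1343 CPM at 198 mg/kg-d, but 441, 595 and 901 CPM at 313 and 480, 617 and 752 CPM at 427 mg/kg-d. All animals of both upper doses lay below all controls. The log2 fold change was -1.03 ± 0.14 at 313 and -1.09 ± 0.14 at 427 mg/kg-d (limma adjusted p = 5.49e-06 and 1.13e-06), which leaves 0.49 and 0.469 of the control level. The call at 313 mg/kg-d sits at the 2-fold limit. It was lost, with log2 fold changes of -0.95, -0.99, -0.92 and -0.997, when control animal 7 or animal 73, 74 or 75 was left out, while the adjusted p stayed far under the threshold.

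The 3 Cyp4f members changed little in FROZ. Cyp4f15 rose by less than 2-fold, from a median of 75.4 CPM (48.7 to 82.3) in controls to 101 CPM (80.1 to 132) at 313 and 109 CPM (99.8 to 131) at 427 mg/kg-d, where all 6 animals lay above all controls. Its log2 fold changes of 0.53 ± 0.12 and 0.63 ± 0.12 had limma adjusted p of 0.0023 and 0.000316, where 26.7 and 30.1% of all genes had an adjusted p under 0.05. Cyp4f14, which hydroxylates leukotriene B4, had a median of 77.9 CPM (57.8 to 86.7) in controls, 85.5 CPM (69.0 to 104) at 198, 53.2 CPM (49.7 to 79.1) at 313 and 68.7 CPM (35.8 to 81.0) at 427 mg/kg-d. It overlapped with controls at every dose, at log2 fold changes of 0.19, -0.38 and -0.28 (limma adjusted p = 0.535, 0.0574 and 0.158). Cyp4f13 stayed between 5.53 and 10.9 CPM in all 24 animals, and its log2 fold changes were -0.23, -0.04 and -0.19 (95% intervals -0.50 to 0.04, -0.31 to 0.22 and -0.45 to 0.08).

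Animals of the 2 groups did not overlap for 6 of the 9 genes at 313 mg/kg-d, against 11.5% of all genes, and for 7 of 9 at 427 mg/kg-d, against 14.7% of all genes. The seventh was Cyp4f15.

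**Figure D2:**
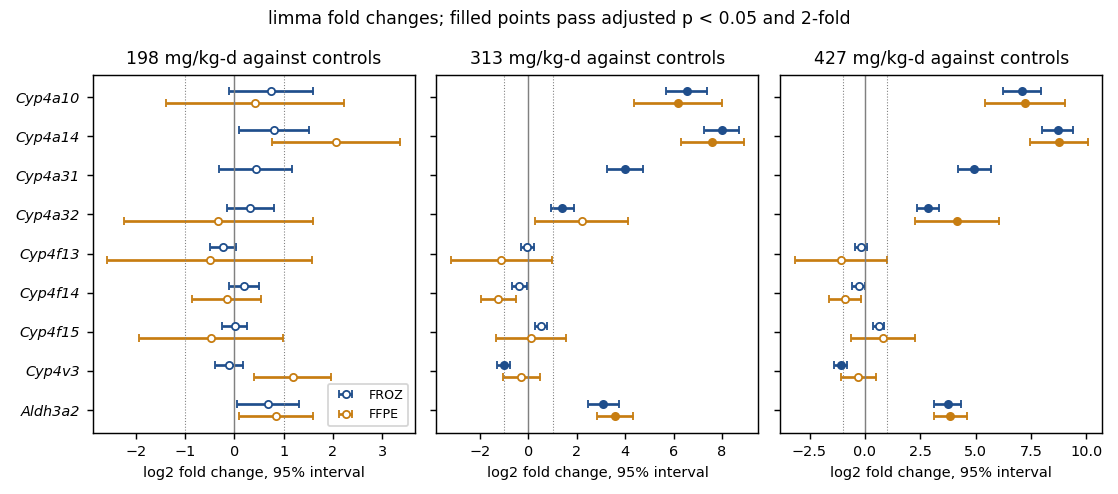
Log2 fold change against the vehicle controls (horizontal axis, on the log2(CPM + 1) scale, with 95% intervals from limma) for each gene, in 1 panel per dose, with FROZ in blue and FFPE in orange. Filled points pass an adjusted p under 0.05 and a 2-fold change, and dotted lines mark 2-fold. Filled points are absent at 198 mg/kg-d, and at 427 mg/kg-d FROZ and FFPE intervals overlap for Cyp4a10, Cyp4a14, Cyp4a32 and Aldh3a2.

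For the genes called in FROZ, except Cyp4a32, most of the change fell between 198 and 313 mg/kg-d. In this step of FROZ liver 5 of 9 genes were called higher, against 1.02% of all genes. Log2 differences were 7.18 for Cyp4a14, 5.79 for Cyp4a10, 3.55 for Cyp4a31, 2.41 for Aldh3a2 and 1.07 for Cyp4a32. Cyp4v3 differed by -0.92, Cyp4f14 by -0.57 and Cyp4f15 by 0.52, all at limma adjusted p under the threshold (7.48e-05, 0.0115 and 0.00626) but under 2-fold. With these, 8 of 9 genes passed on p alone, against 11.7% of all genes. For Cyp4a32 the call was lost without animal 73 or 74, at log2 differences of 0.87 and 0.94, and Cyp4v3 would be called lower without animal 76 or 77, at -1.02 and -1.01.

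From 313 to 427 mg/kg-d, 1 of 9 genes was called higher, against 0.266% of all genes, and the same gene was the only one under the adjusted p, which 3.07% of all genes reached. It was Cyp4a32, at a log2 difference of 1.46 ± 0.23 (limma adjusted p = 0.000622). Reads can be divided between Cyp4a32 and its near copies. Of the summed level of Cyp4a10, Cyp4a31 and Cyp4a32, Cyp4a32 held a median of 2.12% at 313 and 4.19% at 427 mg/kg-d. The part of such division in its step was not tested. The step was 0.55 (95% interval -0.30 to 1.40) for Cyp4a10, 0.72 (0.01 to 1.43) for Cyp4a14, 0.96 (0.22 to 1.70) for Cyp4a31 and 0.64 (0.01 to 1.27) for Aldh3a2, with adjusted p of 0.517, 0.277, 0.152 and 0.272. A further doubling in this step lies inside the intervals of all 4 genes.

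Members were compared with each other within each FROZ animal, as the difference of their log2 levels, at each dose against the controls. The 21 comparisons used an exact permutation test over all splits of 6 and 6 animals (two-sided, smallest possible p 0.00216), with Benjamini-Hochberg adjustment over the 21. The Cyp4a14 to Cyp4a10 ratio rose by 1.45 on the log2 scale at 313 and by 1.62 at 427 mg/kg-d (exact permutation adjusted p = 0.0273 and 0.0152). Control animals ranged from -4.16 to -1.84 in this log2 ratio and animals at 427 mg/kg-d from -2.29 to -1.64. With an offset of 0.1 CPM the rises were 2.64 and 2.81. Against Aldh3a2, Cyp4a10 rose by 3.44 and 3.35 more (exact permutation adjusted p = 0.0065 for both).

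The Cyp4a10 to Cyp4f14 ratio rose by 6.92 and 7.37, and the Cyp4a10 to Cyp4v3 ratio by 7.56 and 8.18, at an exact permutation adjusted p of 0.0065 in each case. At 198 mg/kg-d these ratios had moved by 0.55 and 0.85 (adjusted p = 0.434 and 0.241). Within the Cyp4f group the responses also differed. The Cyp4f15 to Cyp4f14 ratio ranged from -0.24 to 0.14 in controls and rose by 0.91 at both 313 and 427 mg/kg-d (exact permutation adjusted p = 0.0114 and 0.0065). The Cyp4f14 to Cyp4f13 ratio rose by 0.42 at 198 mg/kg-d (exact permutation adjusted p = 0.028) and moved by -0.34 and -0.09 at the upper doses (adjusted p = 0.130 and 0.720). The Cyp4f14 to Cyp4v3 ratio rose by 0.65 and 0.81 at the upper doses (exact permutation adjusted p = 0.028 for both).

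**Figure D3:**
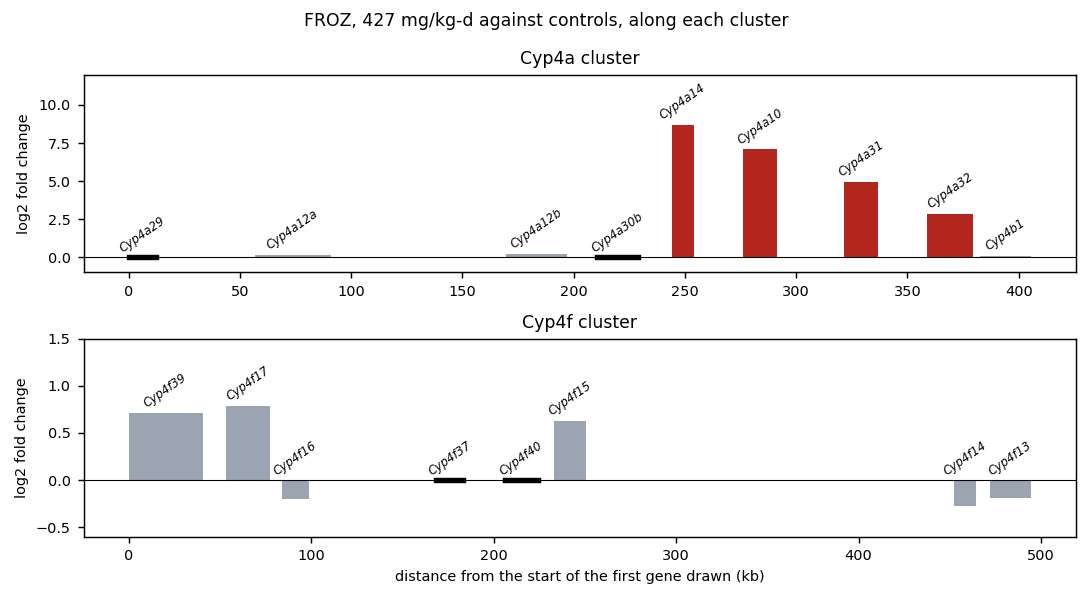
Log2 fold change in FROZ liver at 427 mg/kg-d (vertical axis) along the Cyp4a and Cyp4f clusters, by distance in kb from the first gene drawn. Bars span each gene, red bars pass an adjusted p under 0.05 and a 2-fold change, grey bars do not, and black marks on the zero line are genes not analysed here. The 4 red bars stand side by side and step down from Cyp4a14 at 8.70 to Cyp4a32 at 2.86, with Cyp4a12b at 0.21 and Cyp4b1 at 0.09 the nearest analysed genes on either side. Reads of Cyp4a10, Cyp4a31 and Cyp4a32 can be divided among these near copies, so their single bars are uncertain.

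Along the Cyp4a cluster the nearest analysed genes on either side of the 4 members were not called. Cyp4a12a and Cyp4a12b, androgen-dependent omega-hydroxylases of male mouse tissues, had log2 fold changes of 0.17 and 0.21 at 427 mg/kg-d (limma adjusted p = 0.591 and 0.4996), and Cyp4b1 on the other side had 0.09 (adjusted p = 0.713). Of 12 other Cyp4 genes looked up, 6 were listed in FROZ and none was called at any dose. At the 3 doses 0.106, 2.31 and 3.5% of all genes were called, and 6 genes are too few to tell from these shares. Cyp4f17 and Cyp4f39 of the Cyp4f cluster had log2 fold changes of 0.79 and 0.71 at 427 mg/kg-d, with adjusted p of 0.000218 and 0.00164 but less than 2-fold. The median of the 6 genes was 0.12, 0.42 and 0.19 at the 3 doses.

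Start regions of the genes were searched for a direct repeat of the nuclear receptor half-site with 1 base between, AGGTCANAGGTCA, the form to which PPAR alpha and its partner RXR bind. RefSeq windows of 300 bases on GRCm38.p6, from 250 bases before to 50 bases after the first listed start, were at hand for 6 of the 9 genes, Cyp4a32, Cyp4f13, Cyp4f14, Cyp4f15, Cyp4v3 and Aldh3a2. No window held the repeat or a single half-site AGGTCA on either strand, which 0.0444 and 16.04% of 27025 promoters did. The closest stretches are shown for the 3 members with a window that were called in FROZ, Cyp4a32 and Aldh3a2 (higher) and Cyp4v3 (lower), with the 13 bases nearest to the repeat in capitals.
Aldh3a2 (chr11:61267227-61267255, minus strand): ccgcggctAGATTAGAGGTAAggggcggg
Cyp4a32 (chr4:115600833-115600861, plus strand): taaccaacTGAACTATGAGATcaagattg
Cyp4v3 (chr8:45333300-45333328, minus strand): cattctgaACTTCAGAGCTCAgaagttgt
Each had 3 mismatches to the repeat, on the strand opposite to the gene for Cyp4a32, beginning 61, 97 and 157 bases before the RefSeq start. For Aldh3a2, on the minus strand, the window ran from 61267137 to 61267436. It lay inside the GENCODE gene, which begins at 61267464, so nothing upstream of that start was searched. The closest stretch had 4 mismatches in Cyp4f15, which rose by less than 2-fold, 4 in Cyp4f14 and 5 in Cyp4f13. Matches with 3 or fewer mismatches were present in 24.4% of all promoters, so the 3 stretches did not set these genes apart, and nothing outside these windows was searched.

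**Figure D4:**
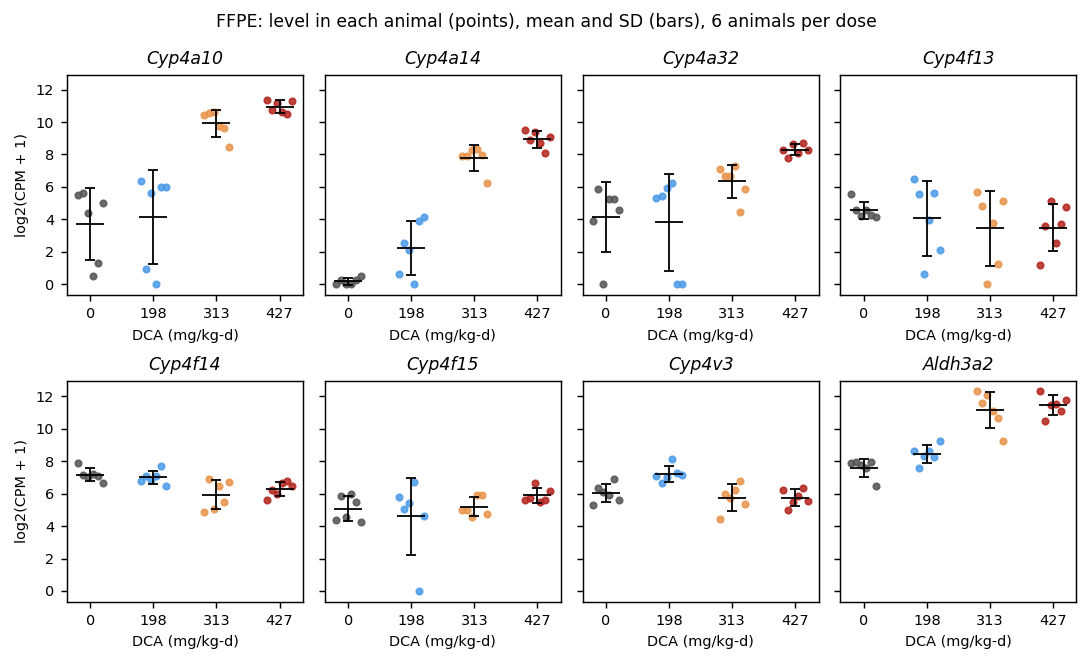
Level of the 8 genes listed in FFPE liver, as log2(CPM + 1), against the dose of DCA in mg/kg-d. Each point is 1 animal, and bars give the mean and SD of 6 animals. Cyp4a14 and Aldh3a2 rise in every animal at 313 and 427 mg/kg-d, and Cyp4a10, Cyp4a32, Cyp4f13 and Cyp4f15 scatter down to 0 in single animals.

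In FFPE liver, 3 of the 8 listed genes rose at 313 mg/kg-d (Cyp4a10, Cyp4a14 and Aldh3a2) and 4 at 427 mg/kg-d, with Cyp4a32 added. With an exact rank sum test none of the 3 calls at 313 mg/kg-d passed (adjusted p = 0.138). For these 3 genes every animal at 313 mg/kg-d lay above all controls, the most extreme order that this test can see. At this dose the 2 groups did not overlap, in either direction, for 105 of all 6673 genes. The rank sum test called 0 of all 6673 genes at 313 mg/kg-d, so it cannot decide on the 3 calls. The limma calls stood against 0.809 and 1.81% of all FFPE genes called, or 0.584 and 1.23% called higher. Cyp4a14, at 0 to 2 reads in all 6 controls, passed the authors' filter on low expression only through animals given DCA. Its part in these counts is therefore not independent of that filter. At 198 mg/kg-d limma called 0 of 8, against 0.0599% of all genes. Before adjustment Cyp4a14, Cyp4v3 and Aldh3a2 had p under 0.05 in limma. The exact rank sum test called 0 of all 6673 genes at this dose too, so its 0 among the members cannot decide. The median log2 fold change of the 8 genes was 0.13, 1.15 and 2.33 from the lowest to the highest dose, and that of all 6673 genes was -0.19, -0.12 and 0.18.

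Cyp4a14 was at 0 to 2 reads in all 6 FFPE controls. It reached 73.1, 244 and 326 CPM (lowest, median, highest) at 313 and 269, 502 and 728 CPM at 427 mg/kg-d. Set against a floor of 3 reads in each control, its level was at least 138-fold higher at 313 and at least 309-fold higher at 427 mg/kg-d. In the 198 mg/kg-d group its mean on the log2(CPM + 1) scale lay at least 2.94-fold above the controls set at this floor. Of these 6 animals, 2 were themselves at or under 3 reads. The group ranged from 0 to 16.6 CPM, and limma did not call Cyp4a14 there (adjusted p = 0.253).

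Aldh3a2 had FFPE levels of 89.3, 226 and 246 CPM (lowest, median, highest) in controls, 187, 358 and 612 CPM at 198, 620, 2620 and 5078 CPM at 313, and 1410, 2935 and 5086 CPM at 427 mg/kg-d. Its log2 fold changes of 3.57 ± 0.37 and 3.86 ± 0.37 at the upper doses passed (limma adjusted p = 9.72e-08 and 6.7e-09), and no animal overlapped with a control. Cyp4a10 rose by 6.18 ± 0.89 and 7.23 ± 0.89 on the log2 scale (limma adjusted p = 3.12e-05 and 1.13e-06). Its FFPE controls split widely, from 0.45 to 47.8 CPM, with 2.47 reads in animal 6, 8.79 in animal 7 and 113 to 217 reads in the other 4.

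In several FFPE livers a low value of one near copy came with a high value of the other. Cyp4a10 was at 0 in animal 52 and at 4.55 reads in animal 50 (both 198 mg/kg-d), where Cyp4a32 had 210 and 216 reads. Cyp4a32 was at 0 in control animal 5 and in animals 53 and 54, where Cyp4a10 had 113, 249 and 176 reads. Cyp4a32 was called at 427 mg/kg-d (log2 fold change 4.16 ± 0.94, limma adjusted p = 0.00817), where its 6 animals held 221 to 409 CPM and lay above all controls. With an offset of 0.1 CPM in place of 1 CPM the log2 fold change of Cyp4a32 was 4.75 and no longer passed (limma adjusted p = 0.115). With 0.0001 CPM Cyp4a10 did not pass at either upper dose, at log2 fold changes of 6.61 and 7.66 (adjusted p = 0.208 and 0.0714).

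The Cyp4f members and Cyp4v3 were not called in FFPE. Cyp4f14 had a log2 fold change of -1.24 ± 0.35 at 313 mg/kg-d (limma adjusted p = 0.0836), with 28.8 to 121 CPM against 100.0 to 233 CPM in controls. It would be called without animal 74 (-1.44, adjusted p = 0.0307) or animal 78 (-1.40, adjusted p = 0.0321). Cyp4v3, which fell in FROZ, had FFPE log2 fold changes of 1.18 ± 0.38 at 198 mg/kg-d (limma adjusted p = 0.260), -0.28 at 313 and -0.29 at 427 mg/kg-d. Its FFPE medians were 64.0 CPM in controls, 138 at 198, 57.0 at 313 and 51.7 at 427 mg/kg-d, and animals of the upper doses overlapped with controls. The shallowest FFPE groups were those at 198 and 313 mg/kg-d, with medians of 3380000 and 3820000 reads against 5280000 in controls, and the part of depth in these values was not tested.

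Whether a response to DCA differed between FFPE and FROZ was tested in the difference of each animal's 2 libraries, over 6591 genes. None of the 8 shared members passed in limma at any dose, against 2, 0 and 2 of all 6591 genes at 198, 313 and 427 mg/kg-d. So few genes passed that the 0 among the members cannot decide. Before adjustment 2, 1 and 0 members had p under 0.05, against 750, 487 and 146 of all genes. With no replicate block, no member passed either. At 427 mg/kg-d the FFPE response minus the FROZ response was 0.06 (95% interval -0.996 to 1.12) for Cyp4a14, 0.14 (-2.09 to 2.37) for Cyp4a10 and 0.12 (-0.36 to 0.60) for Aldh3a2, so only for Aldh3a2 does the interval leave out a 2-fold difference. For Cyp4v3 it was 1.29 (0.48 to 2.09) at 198, 0.74 (-0.06 to 1.55) at 313 and 0.80 (-0.002 to 1.60) at 427 mg/kg-d, with limma adjusted p of 0.303, 0.655 and 1.00. For Cyp4f14 it was -0.86 (-1.53 to -0.19) at 313 mg/kg-d (adjusted p = 0.619).

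Apart from DCA, members differed in how their measured level in FFPE compared with FROZ. Among control animals, the FFPE minus FROZ difference in log2 level averaged -4.30 for Cyp4v3, with 6 values from -4.83 to -3.84, a lower mean than that of all but 1.21% of shared genes. It averaged 2.71 for Aldh3a2 (2.38 to 3.15), higher than in 93.8% of shared genes, and 0.33 for the median gene. The tables were scaled separately over different sets of genes, so these differences describe the deposited values.

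**Figure D5:**
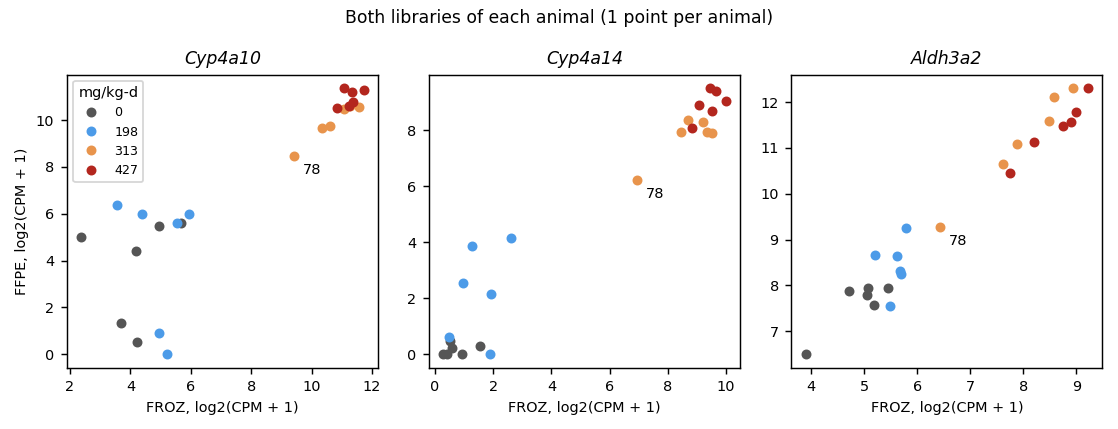
FFPE level (vertical axis) against FROZ level (horizontal axis) of Cyp4a10, Cyp4a14 and Aldh3a2 in each of the 24 animals, both as log2(CPM + 1), coloured by dose of DCA in mg/kg-d. Animal 78 is marked and lies lowest of the 313 mg/kg-d group in both libraries for all 3 genes.

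Some animals stood at the end of their group for several genes. At 313 mg/kg-d animal 78 was the lowest of its group for Cyp4a10, Cyp4a14, Cyp4a31 and Aldh3a2 in FROZ, at log2 levels of 9.41, 6.95, 3.37 and 6.43 against group medians of 10.85, 8.95, 4.48 and 8.19. It was also the lowest in FFPE for Cyp4a10, Cyp4a14 and Aldh3a2, at 8.48, 6.21 and 9.28. In FROZ animal 78 was also the lowest of its group for Cyp4f15 and the highest for Cyp4f14. At Cyp4v3, Cyp4a32 and Cyp4f13 animal 78 was not at either end of its group in FROZ. At 198 mg/kg-d animal 54 was the highest for Cyp4a10, Cyp4a14, Cyp4a31 and Aldh3a2 in FROZ and for Cyp4a14 and Aldh3a2 in FFPE. It was also the lowest for Cyp4f13, Cyp4f14 and Cyp4f15 in FROZ and for Cyp4f14 in FFPE. Among controls animal 8 was the lowest for Cyp4a10, Aldh3a2, Cyp4f14 and Cyp4f15 in FROZ. In FFPE animal 8 was the lowest control for Aldh3a2, Cyp4f13, Cyp4f14 and Cyp4f15.

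FROZ and FFPE values of the same animals were correlated within each dose for 3 genes, in 12 comparisons with exact permutation p over all pairings of 6 animals. For Aldh3a2 the order of animals was the same in both libraries at 313 mg/kg-d (r = 0.992, exact adjusted p = 0.0083, rho = 1.00, adjusted p = 0.0167) and at 427 mg/kg-d (r = 0.971, exact adjusted p = 0.0083, rho = 1.00, adjusted p = 0.0167). Without the 2 animals farthest from the median, r was 0.962 and 0.967. For Cyp4a10 r was 0.981 at 313 mg/kg-d (exact adjusted p = 0.0222) and rho was 0.943 (adjusted p = 0.0667), with r = 0.985 without the 2 farthest animals. No other comparison passed. For Cyp4a14 at 313 mg/kg-d, r was 0.840 (exact adjusted p = 0.307) and rho 0.03, and r fell to -0.02 without animals 78 and 73.

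As a description across the 24 FROZ libraries, which fall into dose groups, the genes most like Cyp4a14 were Ehhadh, Retsat (retinol saturase), Gm3776, Dbi (the acyl-CoA binding protein) and Gsta1 (a glutathione transferase), at Pearson r of 0.974 to 0.981 among 5864 genes that averaged 10 CPM or more, the 9 members left out. Those most like Cyp4v3 were Omd, Acadsb (an acyl-CoA dehydrogenase), C8b (a complement protein), Il1rap and Klkb1 (prekallikrein), at r of 0.904 to 0.947. Those most like Cyp4f14 were Paxx, Gpc4, Pemt (which makes phosphatidylcholine), Zdhhc9 and Serpinc1 (antithrombin), at r of 0.830 to 0.839.

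Genes of the steps around the members were taken from lists. Of 21 genes for the entry and oxidation of dicarboxylic acids in peroxisomes, 19 were listed in FROZ. Of these 0, 10 and 12 were called higher and none lower at the 3 doses, with median log2 fold changes of 0.16, 1.22 and 1.35. At the upper doses 1.43 and 2.26% of all genes were called higher. At 427 mg/kg-d Ehhadh, the bifunctional enzyme of peroxisomal beta-oxidation, rose by 4.75 ± 0.31, and Acot3, a peroxisomal acyl-CoA thioesterase, by 8.02 ± 0.45 on the log2 scale (limma adjusted p = 1.24e-11 and 5.48e-13). Others called higher included Abcd2 (1.87), Abcd3 (1.71), Acsl1 (1.23), Acaa1a (2.63), Acaa1b (2.97), Ech1 (1.35), Eci2 (1.90), Decr2 (1.26) and Crat (2.63). In FFPE 0, 4 and 10 of 18 listed genes were called higher, against 0.584 and 1.23% of all genes at the upper doses. At 427 mg/kg-d these included Ehhadh (5.35), Acot3 (5.11), Acaa1b (3.34), Crat (2.72), Acaa1a (2.39), Acsl1 (1.64), Eci2 (1.53), Hsd17b4 (1.13) and Slc27a2 (1.09).

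Of the alcohol dehydrogenases, the step between the Cyp4 genes and Aldh3a2, 3 were listed in FROZ and all changed by less than 2-fold. Adh1 had log2 fold changes of 0.08, 0.36 and 0.60 (limma adjusted p = 0.790, 0.0217 and 0.000197), Adh4 of 0.64, 0.53 and 0.52 (adjusted p = 0.00137, 0.000382 and 0.000291) and Adh5 of 0.37, 0.31 and 0.36 (adjusted p = 0.0879, 0.0509 and 0.0205). Of 12 listed genes of 17 alcohol and other aldehyde dehydrogenases, 1 was called in FROZ at each upper dose, where 1.43 and 2.26% of all genes were called higher. It was Aldh1a1, a cytosolic retinal dehydrogenase, at log2 fold changes of 1.204 ± 0.21 and 1.17 ± 0.21 at 313 and 427 mg/kg-d (limma adjusted p = 0.000117 and 0.000103). The median of the list was 0.16, 0.33 and 0.45. Among 5 electron donors of microsomal P450, none was called against controls, at medians of 0.22, 0.34 and 0.30. Por, the reductase that feeds all microsomal P450, differed by 1.11 ± 0.18 between 198 and 313 mg/kg-d (limma adjusted p = 0.000124). Against controls Por differed by -0.49, 0.62 and 0.68 (adjusted p = 0.143, 0.0108 and 0.0042). Of 9 regulators, 1 was called, against 3.5% of all genes, Srebf1, the regulator of lipogenesis, at 1.73 ± 0.27 at 427 mg/kg-d (limma adjusted p = 1.89e-05), and the medians of the list were 0.09, 0.15 and 0.39. Ppara itself had log2 fold changes of 0.0019, 0.02 and 0.39 (adjusted p = 0.998, 0.939 and 0.0434), all under 2-fold.

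Markers of cell types were read beside these results. All 7 hepatocyte markers were listed in FROZ and none was called at any dose, with a summed level of 30416 to 39093 CPM in controls, 25943 to 31621 CPM at 313 and 27337 to 32309 CPM at 427 mg/kg-d. Of 6 pericentral and 6 periportal markers, all listed in FROZ, none was called at 427 mg/kg-d, and Pck1 was called lower at 313 mg/kg-d. Markers of Kupffer, stellate, sinusoidal endothelial and bile duct cells were not called at any dose in FROZ. Some summed levels moved without overlap all the same. The pericentral sum in FROZ was 7507 to 9389 CPM at 313 mg/kg-d against 9450 to 13379 CPM in controls, and the sum of 5 sinusoidal endothelial markers was 93.7 to 117 CPM at 313 and 92.3 to 112 CPM at 427 mg/kg-d against 118 to 138 CPM. In FFPE the sum of the 6 listed hepatocyte markers was 28386 to 32981 CPM at 427 mg/kg-d against 39211 to 53175 CPM in controls, and 1 marker in all was called there, the periportal Sds, lower at 198 mg/kg-d. The part of these shifts in the members' values was not tested. None of 4 markers of kidney proximal tubule, where Cyp4a genes are also active, and none of 4 adipocyte markers was listed in either table.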

How the data were processed

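The deposited values are log2(CPM + 1), which the authors computed from gene counts. Reads were aligned by the authors to the mm10 transcriptome with STAR in Partek Flow and quantified by expectation maximization, genes whose geometric mean did not exceed 1 were removed, and CPM were scaled separately for FROZ and FFPE. Groups followed the dose and preservation in the sample records, and animal numbers paired the libraries. Within a dose, deviations from the group mean were most alike between both libraries of the same animal in 21 of 24 animals, at a median r of 0.128 against -0.023 for other pairs. Fold changes were estimated by limma 3.58.1 in R 4.3.3, with a mean-variance trend in the prior, from the 24 libraries of a table together, and responses were compared through each animal's difference between FFPE and FROZ. The fit was tested on simulated data. Gene positions and transcripts came from GENCODE M21, and coding sequences were aligned with Biopython 1.88. Genes named outside the members came from lists, from the genes called in them (1 is not reported here), and from the 5 genes most alike to 3 members. Members, lists and tests were chosen with earlier results of these data known. Reads carry no molecular identifiers, so floors of 3 reads cover counting error only. Alternatives were an offset of 0.1 or 0.0001 CPM, median-ratio scaling, a minimum mean of 10 CPM, no trend in the prior, only the 2 groups compared, array quality weights, an exact rank sum test, each animal left out in turn, and no replicate block.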

Additional observations from a re-analysis of the deposited data

Results flagged for a closer look

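Of 68 groups of 6 animals, 7 held an animal whose gap to its nearest neighbour was a large part of the group's range, and chance gives about 1 in 20. In FFPE at 313 mg/kg-d, animal 78 was lowest for Cyp4a14, at 6.21 against 7.88 for the next (gap of 0.779 of the range). In FROZ at 427 mg/kg-d, animal 102 was highest for Cyp4a31, at 6.43 against 5.81 (0.631). Control animal 8 was lowest for Cyp4f15 in FROZ, at 5.64 against 6.14 (0.670), and for Aldh3a2 in FFPE, at 6.496 against 7.57 (0.735). In FFPE, Cyp4a32 was at 0 in control animal 5 with the next at 3.90 (0.666), Cyp4f13 was highest in control animal 3, at 5.59 against 4.58 (0.714), and Cyp4f15 was at 0 in animal 53 of the 198 mg/kg-d group with the next at 4.65 (0.694). All levels are log2(CPM + 1).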

How the results depend on the processing

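Counts of called genes among the members kept within 1.5 times of their value in every alternative, except in FFPE. At 427 mg/kg-d the FFPE count fell from 4 to 2 with an offset of 0.0001 CPM, where Cyp4a10 and Cyp4a32 had limma adjusted p of 0.0714 and 0.661. Cyp4a10 also lost its call at 313 mg/kg-d with this offset (limma adjusted p = 0.208). At 313 mg/kg-d the FFPE count fell from 3 to 0 with the exact rank sum test. That test called 0 of all FFPE genes at 313 mg/kg-d, so this fall cannot decide on the 3 calls. With an offset of 0.1 CPM Cyp4a32 in FFPE was no longer called at 427 mg/kg-d (adjusted p = 0.115). Array quality weights left Cyp4v3 in FROZ at 313 mg/kg-d just under 2-fold (-0.99). The paired fit and the fit with no replicate block both passed 0 members, and pairing changed no call. The paired fit passed only 2, 0 and 2 of all 6591 genes at the 3 doses, so this 0 cannot decide.

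Directions turned only among values that were not called. These were Cyp4f15 in FROZ at 198 mg/kg-d with median-ratio scaling (-0.079) and array quality weights (-0.018), and in FFPE Cyp4a10 at 198 mg/kg-d with an offset of 0.0001 CPM (-1.56), Cyp4a32 at 198 mg/kg-d with array quality weights (1.06) and Cyp4f15 at 313 mg/kg-d with array quality weights (-0.018). With each animal left out in turn, log2 fold changes crossed 0 for FROZ Cyp4f13 at 313 (-0.11 to 0.044), Cyp4f15 at 198 (-0.097 to 0.084) and Cyp4v3 from 313 to 427 mg/kg-d (-0.17 to 0.037). In FFPE they did so at 198 mg/kg-d for Cyp4a10 (-0.22 to 1.25), Cyp4a32 (-1.15 to 0.44), Cyp4f13 (-0.99 to 0.19) and Cyp4f15 (-0.90 to 0.44), and at 313 mg/kg-d for Cyp4f15 (-0.063 to 0.29). The cause of these turns was not tested.

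Median-ratio scaling moved the median log2 fold change of all FROZ genes at 313 and 427 mg/kg-d from 0.11 and 0.10 to -0.0043 and -0.0069. In FFPE at 427 mg/kg-d it moved from 0.18 to 0.073. Over all FROZ genes, the 12 calls at 198 mg/kg-d became 22 with an offset of 0.1 CPM, 7 with a minimum mean of 10 CPM and 0 with the exact rank sum test, and the 261 at 313 mg/kg-d became 467 and 452 with offsets of 0.1 and 0.0001 CPM. Over all FFPE genes, the 4 calls at 198 mg/kg-d became 7 with the minimum mean and 0 with the rank sum test, the 54 at 313 mg/kg-d became 35 without the trend and 0 with the rank sum test, and the 121 at 427 mg/kg-d became 281 with array quality weights and 232 with only the 2 groups compared. Shallow FFPE libraries limit what can be said of genes near 3 reads, and near copies limit Cyp4a10, Cyp4a31 and Cyp4a32.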
